A study of Homo sapiens with 24 samples.

Results

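The ADAM, ADAMTS and matrix metalloproteinase (MMP) genes were followed through the induction of a short hairpin RNA against OTX2 in D425 cells. D425 is a human medulloblastoma cell line, long established in culture. A probe set was taken when its annotation gave 1 gene symbol beginning with ADAM and a digit, ADAMTS, ADAMTSL, or MMP and a digit. This held for 167 of the 54675 probe sets, which stand for 74 of 19775 named genes, and 39 of the 74 passed the filter on dim signal and were tested, among 13903 genes tested in all. In the arm labelled shOTX2 the cells carry a doxycycline-inducible hairpin against the homeobox factor OTX2, and RNA was taken at 0, 8, 16, 24, 48 and 96 h of induction in 3 independent courses (18 arrays). The control arm is D425 cells labelled only as control, followed over the same 6 times in 1 course (6 arrays). Both arms were plated 24 h ahead of doxycycline, the 0 h arrays precede induction, and the labels do not say whether either line is a clone or what construct the control carries. OTX2 itself is a transcription factor of the developing brain that medulloblastomas of this kind express.

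These proteases cut proteins at the cell surface and in the extracellular matrix. ADAMs are membrane-anchored and release the outer part of other membrane proteins, a step called shedding, although some ADAMs lack the catalytic zinc-binding motif and act as adhesion or receptor proteins. ADAMTS enzymes are secreted and cut proteoglycans and procollagens, ADAMTSL proteins resemble them without the protease domain, and MMPs degrade collagens and other matrix proteins. Tissue inhibitors of metalloproteinases (TIMPs) block them. In the developing brain they take part in Notch signalling, axon growth and the remodelling of matrix around migrating cells.

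Values are MAS5 signals, the linear intensity of a probe set after the authors scaled each array to a common mean. A gene is read by its probe set with the highest mean, changes are differences of log2(signal + 16), and calls are made at an adjusted p under 0.05 in limma (Benjamini-Hochberg over all 13903 genes). All times are set against the same 3 arrays at 0 h, so the comparisons over time share their baseline. The array median lay between 16.3 and 20.6, and signals near or under it are dim. All 5 markers of these cells that were looked up (OTX2, MYC, CRX, NRL and IMPG2) had a median of 100 or more, and the immune, endothelial and astrocyte markers found on the array (14 genes) all had medians under 50. OTX2 read 4659 ± 217 (SD, n = 3) at 0 h and 4188 ± 302 at 96 h in the shOTX2 arm on its brighter probe set. The labels place neither the hairpin nor the probes on the OTX2 transcript, so these signals do not check them. The 3'/5' signal ratio of actin, which reflects intact RNA and labelling, averaged 1.42 in course 1 and 1.40 in the control course against 2.07 in course 2 and 1.91 in course 3. p-values measure the spread between courses of 1 cell line.

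By 96 h in the shOTX2 arm, 3 of the 39 tested genes had risen and 8 had fallen. ADAM10, the main constitutive sheddase, ADAM22 and ADAMTS18 were the ones that rose. ADAM28, ADAM9, ADAM17, ADAM23, ADAMTS1, ADAMTS8, ADAMTS9 and MMP2 fell. In bulk RNA, less of a transcript per cell and fewer cells that carry it cannot be told apart. The background of that comparison was 43.6% of all tested genes called, 21.1% higher and 22.5% lower, so 11 of 39 is not a larger share than among other genes. The median change over the 39 genes was -0.03 on the log2 scale, beside 0.00 (-0.00074) over all genes. With median centring of the arrays, the median change over all genes was -0.15, and this cut the share of higher calls from 48.4% to 35.8%. Under that scaling 2 genes of the family rose and 11 fell.

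The calls built up over time. At 8 h none of the 39 genes was called by limma, 1 had an unadjusted p under 0.05, and 2 with the course as a block, while 0% of all genes were called. At 16 h ADAMTS1 alone was called, against a background of 1.02% (0.633% higher, 0.388% lower). With the course as a block, ADAM10 (log2 change 0.30, adjusted p = 0.00376) and ADAM28 (-0.48, adjusted p = 0.0144) were called as well, which made 3. At 24 h ADAM10 had risen and ADAM28, ADAMTS1 and ADAMTS9 had fallen, 4 genes against a background of 6.14% (3.45% higher, 2.68% lower). At 48 h 1 gene had risen and 8 had fallen, against a background of 33.3% (16.2% higher, 17% lower). From early (0 and 8 h) to late (48 and 96 h), 4 had risen and 9 had fallen, against 49.2% (24.7% higher, 24.5% lower), and the membrane-type MMP25 (0.42, adjusted p = 0.0408) was called here but at no single time.

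**Figure D1:**
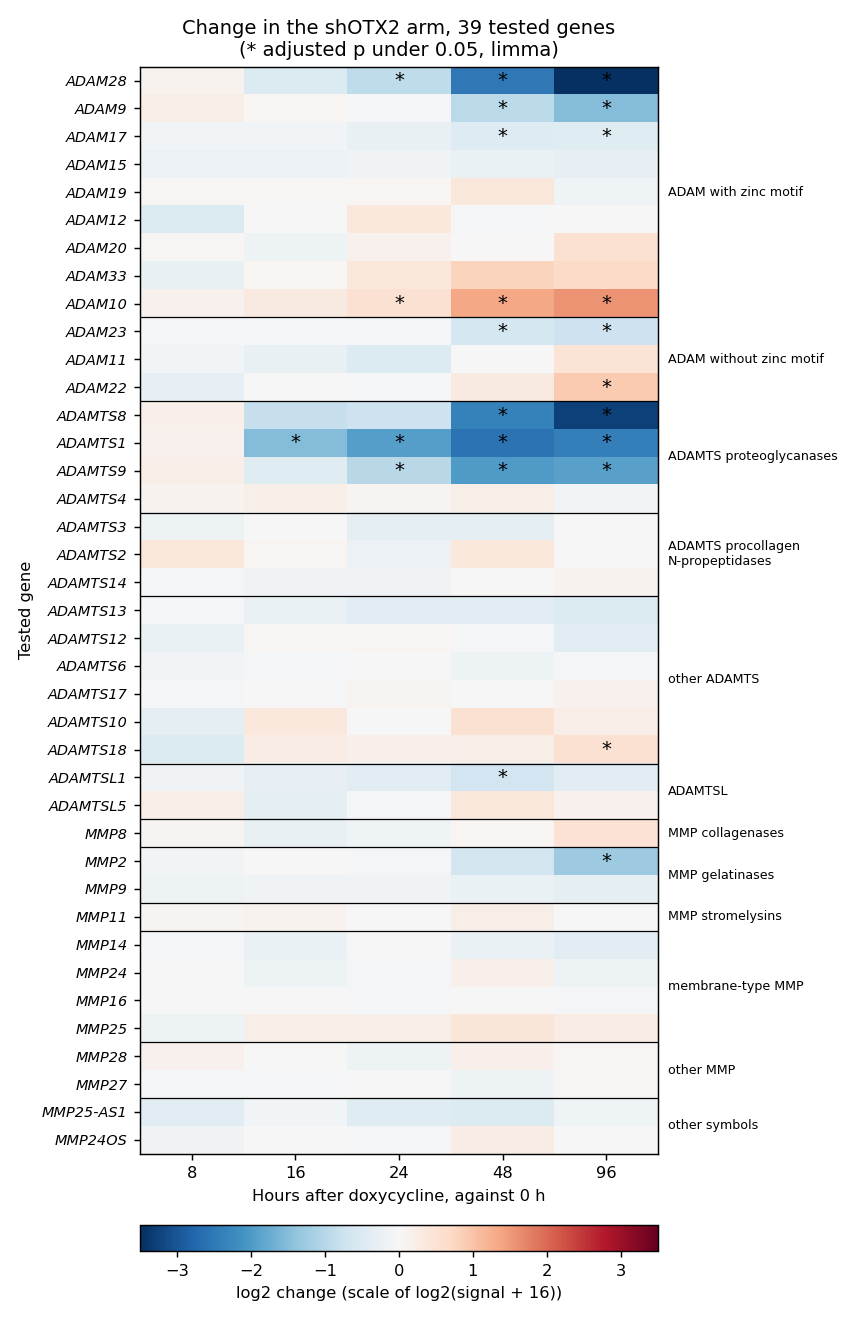
Heat map of the log2 change in the shOTX2 arm at 8, 16, 24, 48 and 96 h against 0 h (3 arrays each) for the 39 tested genes, grouped by kind of protein; blue is lower, red is higher, and an asterisk marks an adjusted p under 0.05 in limma. ADAM28 reaches -3.49 and ADAMTS8 -3.28 at 96 h, ADAM10 reaches 1.57, and most rows carry no asterisk.

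Among the 12 ADAM genes with a catalytic zinc motif, 9 were tested, and at 96 h 1 had risen and 3 had fallen, a share near the 43.6% of all genes called. The best-known sheddases, ADAM10 and ADAM17, went in opposite directions. They cut overlapping sets of membrane proteins including Notch receptors. In courses 1, 2 and 3, ADAM10 read 999.9, 1087.1 and 1089.5 at 0 h, 1454.6, 1599.5 and 1569.4 after 24 h, 2532.0, 2757.2 and 2876.9 at 48 h, and 2997.4, 3315.6 and 3225.2 after 96 h. The control course read 1286.1 at 0 h, 1131.1 after 24 h, 1414.7 at 48 h and 1416.0 after 96 h. From 24 h on, every shOTX2 array lay above every 0 h array of its arm and above all control arrays. The change was 0.53 (SE 0.089, adjusted p = 0.00119) at 24 h, 1.35 (adjusted p = 5.12e-09) after 48 h and 1.57 (SE 0.089, adjusted p = 3.83e-10) at 96 h in limma, the last being 2.97-fold. The 24 h call was lost without course 2 (adjusted p = 0.0836), without course 3 (adjusted p = 0.0633) and with the mean of its probe sets (0.37, adjusted p = 0.065).

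ADAM17, also called TACE, the sheddase of tumour necrosis factor, moved the other way and by less. It read 373.3, 350.4 and 287.1 at 0 h, 239.7, 229.9 and 249.9 after 48 h, and 253.5, 256.4 and 233.7 at 96 h, with 304.1, 386.3 and 360.6 in the control at those times. The late shOTX2 arrays were below all others of their arm at 0 h and below all control arrays. The log2 change was -0.46 (adjusted p = 0.00357) at 48 h and -0.41 (SE 0.11, adjusted p = 0.0053) at 96 h, a 1.33-fold fall. The limma calls at 48 and 96 h were lost without course 2 (adjusted p = 0.116 and 0.0834). The later one was also lost with the mean of the gene's probe sets in place of the brightest (-0.24, adjusted p = 0.0826).

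The 250 bases before the start of both genes are shown because these genes moved in opposite directions, with the E-box CACGTG, a site that MYC-type factors bind, in capitals. They are from RefSeq on GRCh38.p14, read 5′ to 3′ on the minus strand, at chr15:58749708-58749957 for ADAM10 and chr2:9555831-9556080 for ADAM17.
ADAM10: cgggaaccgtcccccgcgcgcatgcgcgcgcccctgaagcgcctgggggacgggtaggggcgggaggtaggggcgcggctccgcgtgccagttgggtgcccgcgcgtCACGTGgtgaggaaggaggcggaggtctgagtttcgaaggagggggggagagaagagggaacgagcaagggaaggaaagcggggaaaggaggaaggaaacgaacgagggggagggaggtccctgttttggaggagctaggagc
ADAM17: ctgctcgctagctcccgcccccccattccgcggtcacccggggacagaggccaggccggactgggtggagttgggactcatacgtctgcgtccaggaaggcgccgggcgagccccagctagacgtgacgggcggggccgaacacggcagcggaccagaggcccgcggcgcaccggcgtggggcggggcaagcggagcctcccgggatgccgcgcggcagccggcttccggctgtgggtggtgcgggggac
Both are rich in G and C, at 68.4% and 75.6%. The ADAM10 stretch holds 1 CACGTG, starting 143 bases before the transcript start, and the ADAM17 stretch holds none. CACGTG, which reads the same on both strands, was in 6.34% of 35116 promoters of this length and in 6 of the 43 that matched 42 genes of the family. TAATCC, the core that OTX factors bind, searched on both strands, was in 5.62% of all promoters and in 2 of the 43, those of MMP10 and MMP8, and in neither printed stretch. The 43 include no promoter of ADAM28, ADAM9, ADAMTS1, ADAMTS8, ADAMTS9 or MMP2, so these genes, which fell, were not searched. The motifs do not overlap, and a match describes letters only.

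ADAM28, a disintegrin-metalloproteinase first described in lymphocytes, fell furthest. It read 708.0, 661.1 and 618.1 at 0 h, 289.4, 384.8 and 378.7 after 24 h, 108.8, 118.2 and 87.5 at 48 h, and 43.2, 44.7 and 44.9 after 96 h. The control course read 187.2, 177.8, 178.3 and 120.8 at the same times. The shOTX2 arrays were therefore above all control arrays up to 24 h and below all of them from 48 h. The change was -0.90 (adjusted p = 0.000369) at 24 h and -3.49 (SE 0.13, adjusted p = 6.05e-12, limma) at 96 h, an 11.2-fold fall. ADAM28 was also the only gene of the family called between the arms at 0 h, where 0.453% of all genes were called: it was higher in shOTX2 by 1.74 (SE 0.18, adjusted p = 8.61e-05). A course block cannot compare the arms at 0 h, since the control is a course of its own. That call against 1 control array was lost when only the 0 h arrays were fitted (adjusted p = 0.0636) and with the mean of its probe sets (0.91, adjusted p = 0.0674).

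ADAM9, a widely expressed sheddase, fell late. It read 423.5, 528.3 and 649.5 at 0 h, 486.5, 513.4 and 533.1 after 24 h, 259.5, 287.7 and 250.3 at 48 h, and 141.9, 168.0 and 223.8 after 96 h. The control course was at 693.7, 503.2, 312.3 and 697.7. On this probe set the control array at 48 h was thus nearly as low as the shOTX2 arrays, and at 96 h it was not. The change was -0.95 (adjusted p = 6.28e-05) at 48 h and -1.50 (SE 0.15, adjusted p = 1.73e-07) at 96 h in limma. Less the control's own change it was 0.17 (SE 0.29, adjusted p = 0.795) at 48 h and -1.51 (SE 0.29, adjusted p = 0.00199) at 96 h. The other ADAM9 probe set past the filter did not repeat the low control at 48 h. It read 106.6 in that control array, against 61, 45 and 32.8 in shOTX2.

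ADAM33, known as an asthma susceptibility gene, had scattered signals on a probe set whose suffix marks probes that can match other transcripts. It read 28.9, 91.4 and 3.9 at 0 h and 32.0, 84.6 and 64.9 at 96 h, and 89.2 and 5.4 in the control. Only course 3 went from low to high, and the control course went from high to low. The 96 h change of 0.68 (SE 0.55) was not called (adjusted p = 0.359). ADAM12, ADAM15, ADAM19 and ADAM20 were not called at any time, and none of their arrays exceeded 52.0 on the tested probe set.

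**Figure D2:**
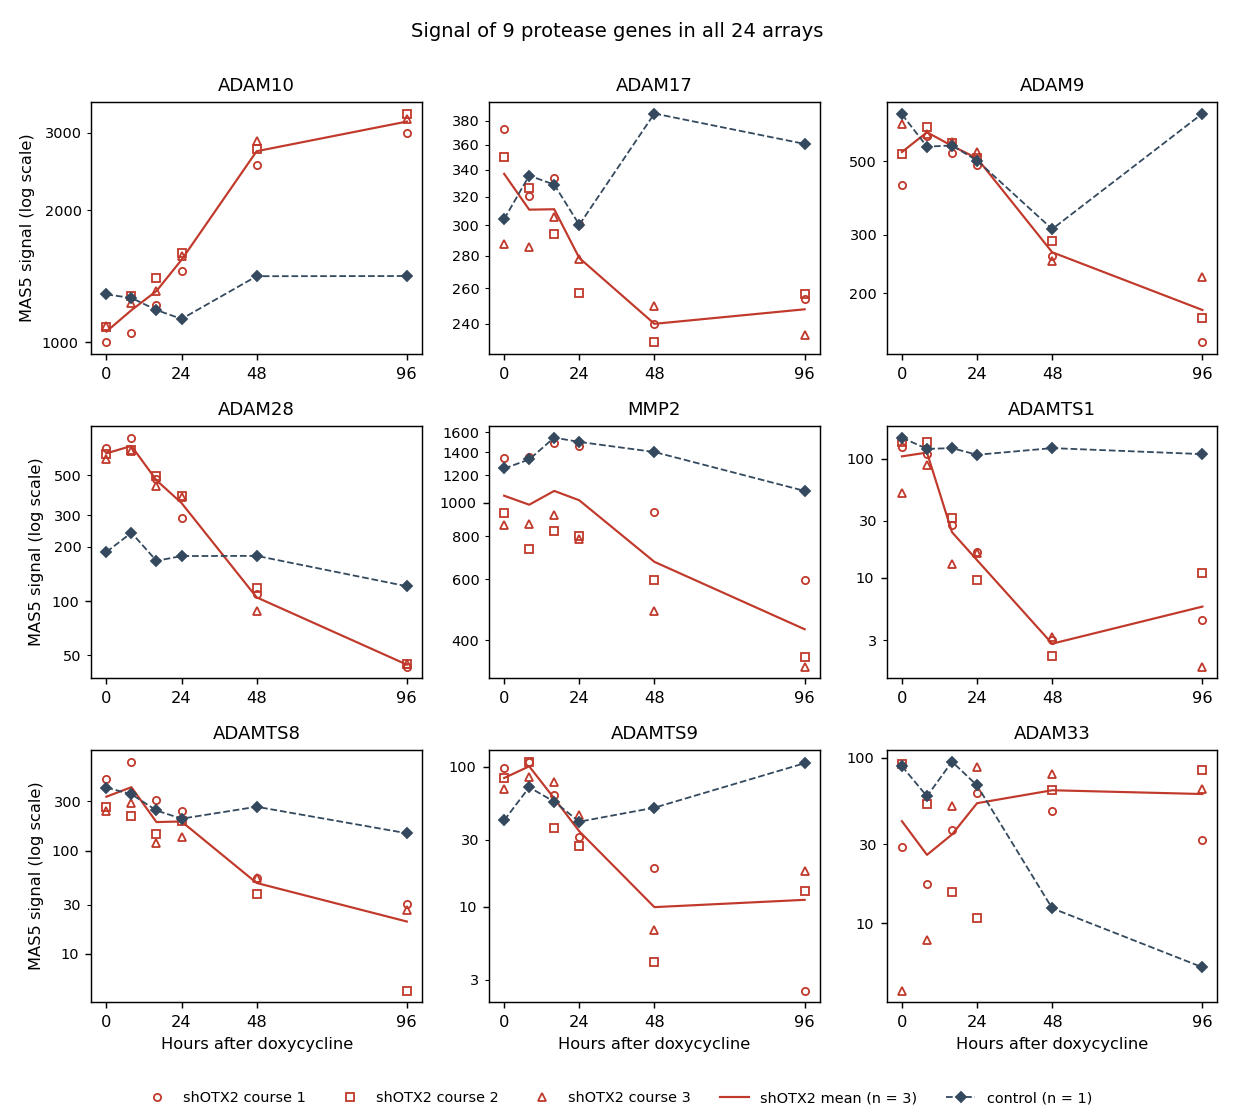
Signal (log axis) of 9 genes against hours of doxycycline; open red symbols are the shOTX2 courses, the red line their mean (n = 3) and filled dark diamonds the control course (n = 1). ADAM10 climbs from about 1059 to 3179 on average, ADAM28 drops from 662 to 44.3, ADAMTS1 has dropped by 16 h, and MMP2 runs higher in course 1 and the control than in courses 2 and 3.

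Of the ADAMs without the zinc motif, 3 of 6 on the array were tested. ADAM22 and ADAM23 encode neuronal surface receptors for the secreted LGI proteins, with ADAM22 anchoring the complex at synapses. ADAM22 read 44.3, 54.6 and 43.5 at 0 h, 56.2, 64.8 and 68.3 after 48 h, and 84.2, 120.1 and 108.3 at 96 h, with 34.3, 38.8 and 46.4 in the control. It had risen at 96 h (0.91, SE 0.16, adjusted p = 0.000155), where its 3 arrays were above all others at 0 h and all control arrays. ADAM23 read 71.6, 50.6 and 56.5 at 0 h and 32.4, 23.3 and 32.5 at 96 h, with 54.2 and 54.0 in the control. It had fallen at 96 h (-0.73, SE 0.19, adjusted p = 0.00366), so the pair went apart. At 48 h its change of -0.61 (adjusted p = 0.0171) lost its call when any 1 course was left out (adjusted p from 0.0517 to 0.127). ADAM11, a close relative of both, read 34.7 ± 5.04 (SD, n = 3) at 0 h and 54.9 ± 9.16 at 96 h, a change of 0.48 that was called only with a course block (adjusted p = 0.0321, against 0.0669), with a pseudocount of 64 (0.0398) or without course 1 (0.0245).

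For the LGI ligands and their partners, 4 of 8 genes were tested, and at 96 h 1 had risen and 1 had fallen, beside 43.6% of all genes called. LGI4 went from 26.6, 6.1 and 5.6 to 58.6, 39.7 and 31.0 (log2 change 1.09, adjusted p = 0.0149), a call lost without course 2 (adjusted p = 0.151) or course 3 (0.0978). LGI4 rose in the control course too, from 19.9 to 40.7, and no gene of this list was called for the difference between the arms. LGI2 went from 64.2, 42.4 and 36.4 to 2.6, 5.5 and 9.5 (-1.53, adjusted p = 1.06e-05). The control course read 58.7 and 7.3 for LGI2 at those times, and the late against early change did not differ between the arms beyond its error (-0.06, adjusted p = 0.925). The shOTX2 arrays were low sooner, at 6.6, 7.8 and 3.7 after 16 h, where the control read 49.3. At 48 h they read 3.6, 7.7 and 5, against 24.9. LGI1 and LGI3 were dim, with highest signals of 4.8 and 6.7.

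The ADAMTS proteoglycanases, which cut aggrecan, versican and related matrix proteoglycans, held 3 of the 8 falls. Of 7 on the array 4 were tested, 3 of these were called lower at both 48 and 96 h, where 17% and 22.5% of all genes were, and the median change at 96 h was -2.15. ADAMTS1 was the first gene of the family to be called. It read 125.1, 136.6 and 51.7 at 0 h, 27.5, 31.8 and 13.1 after 16 h, 16.6, 9.5 and 16.1 at 24 h, and 4.4, 11 and 1.8 after 96 h. The control course stayed between 107.7 and 150.1 at all 6 times. From 16 h every shOTX2 array lay below all 0 h arrays and all control arrays. The change was -1.53 (SE 0.27, adjusted p = 0.00798) at 16 h, -1.92 (adjusted p = 0.000301) after 24 h and -2.41 (SE 0.27, adjusted p = 9.85e-07) at 96 h in limma. The 16 h call was lost without course 1 (adjusted p = 0.0631), without course 2 (0.355), with a pseudocount of 1 (0.0508) and with only the 2 groups in the fit (0.128), and the 24 h call without course 2 (0.0559).

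ADAMTS8 read 494.8, 264.2 and 242.2 at 0 h, 53.8, 37.7 and 54.4 after 48 h, and 30.7, 4.4 and 26.6 at 96 h. The control course declined too, from 409.3 to 266.6 and 147.5, and the late shOTX2 arrays were below all of its arrays. The change was -3.28 (SE 0.41, adjusted p = 4.04e-06) at 96 h, a 9.69-fold fall. ADAMTS9 read 97.9, 82.6 and 69.1 at 0 h, 31.6, 27.0 and 45.1 after 24 h, 18.9, 4.0 and 6.8 at 48 h, and 2.5, 13 and 18 after 96 h, while the control read 41.4, 40.5, 51.0 and 106.2. The groups parted by 24 h within the shOTX2 arm and from the control by 48 h. The change was -0.98 (adjusted p = 0.0321) at 24 h and -1.90 (SE 0.26, adjusted p = 9.59e-06) at 96 h. The 24 h call was lost when any 1 course was left out (adjusted p from 0.077 to 0.349), with a pseudocount of 1 (0.208) and with no filter (0.0566). ADAMTS4, the aggrecanase, read 27.8 ± 4.61 at 0 h and 25.2 ± 5.86 at 96 h and was not called (-0.09, adjusted p = 0.718).

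Because late signals of ADAMTS1, ADAMTS8 and ADAMTS9 are near or under the array median, the size of their falls hangs on the constant added before the logarithm. At 96 h the change ran from -4.10 to -1.23 for ADAMTS1, from -4.24 to -2.05 for ADAMTS8 and from -3.09 to -0.97 for ADAMTS9 over the alternatives, and all of these were called. ADAM28 ran from -3.87 to -2.14, ADAM22 from 0.49 to 1.11 and ADAM23 from -0.995 to -0.402, also called throughout.

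Among the other secreted ADAMTS genes few moved. None of the 3 procollagen N-propeptidases, which trim collagen precursors, was called at any time, and ADAMTS3 read 103 ± 17.3 (SD, n = 3) at 0 h and 101 ± 24.2 at 96 h. Of 6 other tested ADAMTS genes, ADAMTS18 was called higher at 96 h (0.53, SE 0.20, adjusted p = 0.0375). It is dim, reading 6.9, 14.8 and 15.1 at 0 h and 21.5, 27.1 and 25.1 at 96 h with 13.6 and 11.5 in the control, and its call was lost in 8 of 13 alternatives, among them without any 1 course (adjusted p from 0.13 to 0.148) and under both other scalings. Of 2 tested ADAMTSL genes, ADAMTSL1 was called at 48 h (-0.68, SE 0.20, adjusted p = 0.0144), from 44.1, 27.1 and 32.7 to 9.9, 17.1 and 19.6. That call was lost when any 1 course was left out (adjusted p from 0.0508 to 0.207), and at 96 h the arrays overlapped those at 0 h.

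MMP2, gelatinase A, which degrades denatured collagen and basement membrane, was the MMP called at 96 h. It read 1350.4, 932.2 and 860.1 at 0 h, 940.4, 597.2 and 485.9 after 48 h, and 597.9, 357.9 and 335.9 at 96 h, with 1255.9, 1401.7 and 1081.6 in the control. The 48 h and 96 h arrays were below all control arrays, and those at 96 h below all at 0 h. Courses 2 and 3, with highest signals of 932.2 and 922.9, were below all control arrays at every time, also before induction. Only in course 1 did the late arrays move below the control. Course 1 was higher than courses 2 and 3 at every time, with means over the 6 times of 1199 against 709.6 and 709.6, and the control averaged 1352. The actin ratio divided the courses the same way, and its part in this difference of level was not tested. Within each course the 96 h array was lower than its own 0 h array, by 1.15, 1.34 and 1.32 on the log2 scale in courses 1, 2 and 3, and by 0.21 in the control. The change was -1.27 (SE 0.31, adjusted p = 0.0025) at 96 h. At 48 h it was -0.65, with an adjusted p of 0.121 in limma and of 3.1e-06 with the course as a block (SE 0.086).

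The other gelatinase, MMP9, read 40.8 ± 3.92 (SD, n = 3) at 0 h and 30.3 ± 9.28 at 96 h (-0.31, adjusted p = 0.23). MMP14, the membrane-type MMP that activates pro-MMP2, read 39.9, 36.9 and 49.7 at 0 h and 27.5, 31.6 and 26.8 at 96 h, with 47.5 and 50.9 in the control. Its arrays at 96 h lay below those at 0 h and below all control arrays. The change of -0.38 was not called (adjusted p = 0.0853), but it was with median centring (-0.53, adjusted p = 0.0157) and quantile normalization (-0.52, adjusted p = 0.0151). MMP24OS, a transcript next to the membrane-type gene MMP24, read 214 ± 66.9 and 213 ± 65.7 at these times and was not called. The tested collagenase (MMP8), stromelysin (MMP11), membrane-type MMP16, MMP24 and MMP25, and MMP27, MMP28 and MMP25-AS1 were not called at any time on their tested probe sets.

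The early to late change was then set against the same change in the control course, whose spread is assumed to be that of the shOTX2 groups. The control's own change was called for none of the 39 genes and for 0% of all genes, and 4 of the 39 had an unadjusted p under 0.05, or 8 with the block. The difference between the arms was called for 8 genes, 2 higher and 6 lower, against a background of 22.4% (10.4% higher, 12% lower). ADAM10 (1.23, SE 0.13, adjusted p = 3.14e-06) and ADAM33 were higher in shOTX2 relative to the control. ADAM28 (-2.58), ADAMTS9 (-2.41), ADAMTS1 (-2.38), ADAMTS8 (-2.03), ADAM9 (-0.94) and ADAM17 (-0.60) were lower. At single times, set against 0 h in both arms, 5 genes were called at 48 h (ADAM10, ADAM17, ADAM28, ADAMTS1 and ADAMTS9), against 10.6% of all genes. At 96 h 5 were called, with ADAM9 in place of ADAM17, against 13.6%. A course block added ADAMTS8 (adjusted p = 0.0104) and MMP2 (0.00194) at 48 h. At 96 h it added ADAM17 (adjusted p = 0.0127), ADAM33 (0.0411), ADAMTS8 (0.00599) and MMP2 (0.00013), which made 9. The ADAM33 difference (2.71, SE 0.78, adjusted p = 0.0181) came from a change of 0.86 in shOTX2 and of -1.85 in the control, and was lost without course 3 (adjusted p = 0.0751).

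Calls for ADAM17 and ADAMTS8 between the arms were lost without course 2 (adjusted p = 0.0889 and 0.0522), and that for ADAMTS8 also with the mean of its probe sets (0.0607). With the course as a block MMP2 (-0.84, adjusted p = 1.98e-05, against 0.196) and ADAM23 (-0.68, adjusted p = 0.0329, against 0.0771) were called too. ADAM22, which had risen in the shOTX2 arm, changed by 0.77 there and by 0.40 in the control, and the difference of 0.36 was not called (SE 0.23, adjusted p = 0.3).

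**Figure D3:**
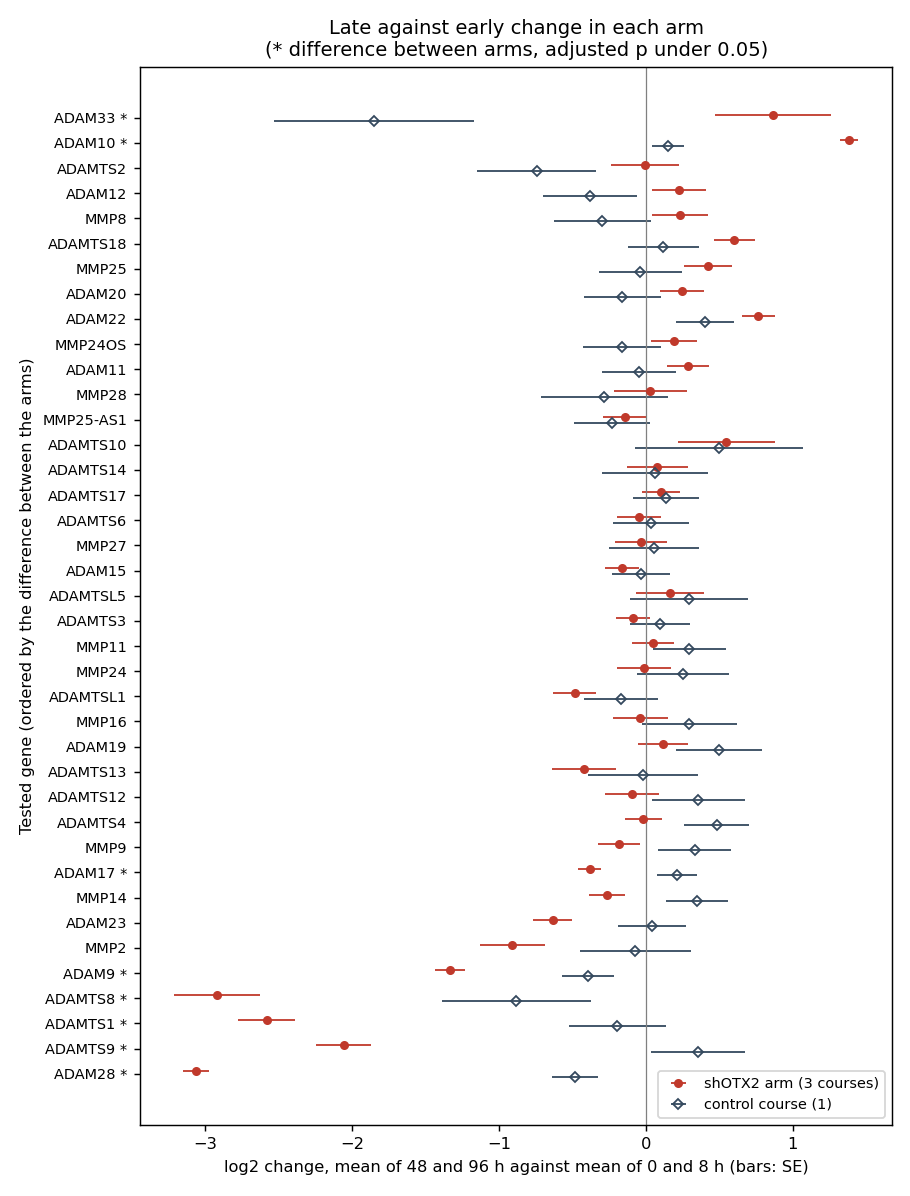
Late against early log2 change with its SE for the 39 tested genes in the shOTX2 arm (red, 3 courses) and in the control course (open dark diamonds, 1 course), ordered by the difference; an asterisk marks a difference with an adjusted p under 0.05 in limma. ADAM28 shows -3.06 against -0.48 and ADAM10 1.38 against 0.15, while the ADAM33 difference comes mostly from the control, at -1.85.

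Among the tested genes, 18 had more than 1 probe set past the filter, which gives a second reading on the same arrays. At 96 h all probe sets of ADAM10 (3), ADAM28 (4), ADAM9 (2), ADAMTS1 (2), ADAMTS8 (3) and ADAM23 (3) were called with the same sign, beside 36.8% of all 33803 probe sets called. For ADAM10 they gave 1.57, 1.81 and 2.09. For ADAM28 they gave values from -3.49 to -1.36. ADAMTS9 had 2 of 3 called lower, and the other gave -0.14. ADAM17 had 1 of 3 called, the others giving -0.30 and -0.00 (-0.0031).

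ADAM22, ADAMTS18 and MMP16 had probe sets of opposite sign with at least 1 of them called. For ADAM22 2 of 6 were called higher, and the lowest gave -0.24. The second ADAMTS18 probe set gave -0.44 and was not called. MMP16, a membrane-type MMP, was not called on its brighter probe set (-0.05). Its dim probe set went from 0.9, 0.7 and 0.8 at 0 h to 8.9, 3.0 and 16.1 after 48 h and 35.0, 38.1 and 36.5 at 96 h, with 0.5, 10.6 and 7.5 in the control (1.64, adjusted p = 1.77e-06). That probe set passed the filter in 3 arrays only, so it passed through the group in which it is high, and its call is no independent support.

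**Figure D4:**
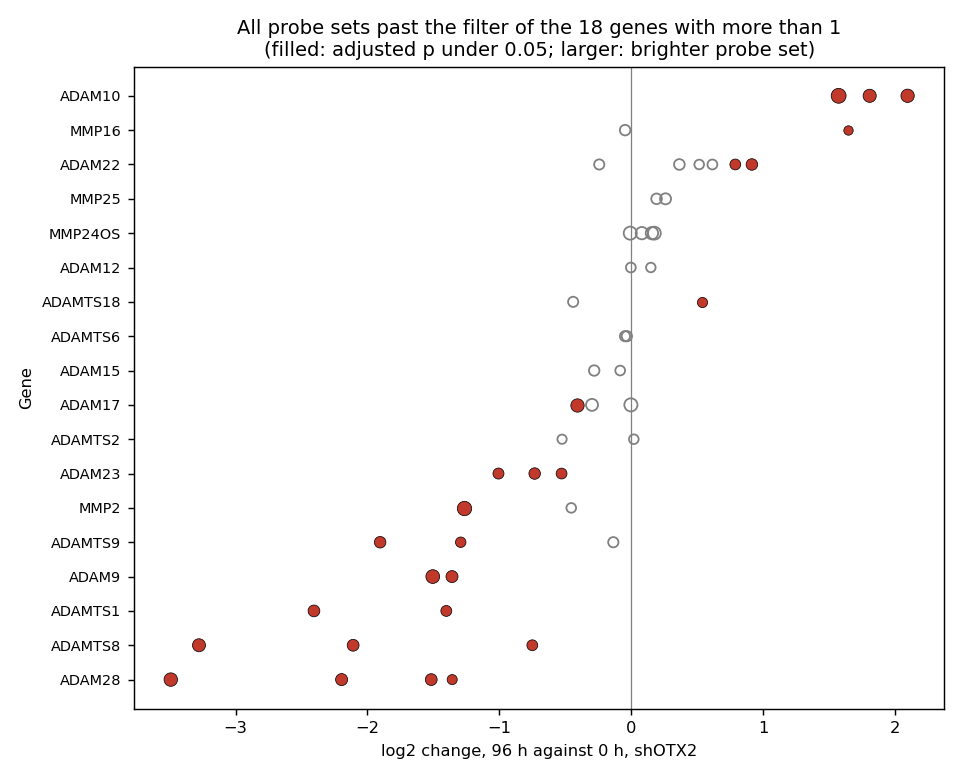
Log2 change at 96 h against 0 h in the shOTX2 arm for each probe set past the filter of the 18 genes with more than 1; filled points have an adjusted p under 0.05 over all 33803 probe sets and larger points are brighter. The 3 ADAM10 points lie between 1.57 and 2.09 and the 4 ADAM28 points between -3.49 and -1.36, while ADAM22, ADAMTS18 and MMP16 have points on both sides of 0, at least 1 of them filled.

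Among the inhibitors TIMP2 rose and TIMP1 and TIMP3 fell. Of TIMP1 to TIMP4 and RECK, a membrane-anchored MMP inhibitor, 4 were tested, and at 96 h 1 had risen and 2 had fallen, beside 43.6% of all genes called. TIMP2, which also assists MMP14 in activating MMP2, read 251.4, 141.3 and 191.6 at 0 h and 843.9, 671.4 and 600.7 at 96 h, with 111.4 and 87.3 in the control (1.79, SE 0.23, adjusted p = 4.4e-06). TIMP3, which is bound to matrix and inhibits ADAM17 and the aggrecanases, read 1616.8, 901.0 and 557.5 at 0 h, 264.0, 284.5 and 278.6 after 24 h, and 25.4, 43.1 and 40.5 at 96 h, while the control read 342.2, 469.3 and 524.7 (-4.20 at 96 h, SE 0.28). TIMP2 was above and TIMP3 below all control arrays at 96 h. Before induction, at 0 h, both were already above all control arrays. All 3 probe sets of TIMP2 and all 4 of TIMP3 were called in these directions.

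TIMP1 read 981.7, 794.1 and 569.1 at 0 h and 496.9, 437.8 and 309.5 at 96 h, and 813.8 and 647.1 in the control. Its fall of -0.88 (SE 0.22, adjusted p = 0.00276) lost its call without course 2 (adjusted p = 0.0648). Late against early, the arms differed for TIMP2 (1.89, adjusted p = 0.000404) and TIMP3 (-3.92, adjusted p = 2.9e-06), and for TIMP1 (-0.41) only with a course block (adjusted p = 0.0218, against 0.387). RECK read 135 ± 37.2 (SD, n = 3) at 0 h and 122 ± 11.5 at 96 h and was not called (adjusted p = 0.793). TIMP4 was dim, at 11.8 or less.

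**Figure D5:**
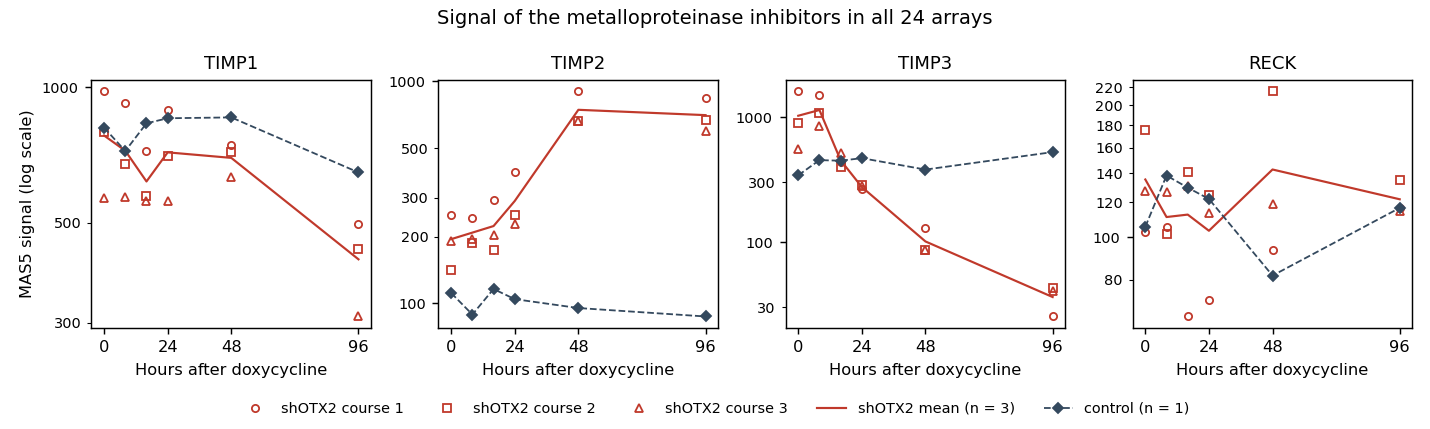
Signal (log axes, each panel with its own range) of 4 metalloproteinase inhibitors against hours of doxycycline; open red symbols are the shOTX2 courses, the red line their mean (n = 3) and filled dark diamonds the control course (n = 1). TIMP2 climbs to 705 and TIMP3 drops to 36.3 on average at 96 h, with control arrays at 87.3 and 524.7.

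Of 18 tested genes for activation and trafficking of these proteases, 3 had risen and 6 had fallen at 96 h, to be read, as for the lists after it, against the 43.6% of all genes called. TSPAN5 and TSPAN14, tetraspanins that carry ADAM10 to the cell surface, rose. TSPAN5 went from 258.6, 237.0 and 304.7 at 0 h to 640.6, 576.2 and 532.4 after 24 h and 516.6, 452.6 and 423.5 at 96 h (0.77, adjusted p = 0.000229), with 267.1, 270.7 and 242.8 in the control. TSPAN14 went from 59.3, 41.1 and 49.0 to 151.8, 125.2 and 89.2 (1.05, adjusted p = 0.00057), with 64.2 and 51.7 in the control. TSPAN33, another tetraspanin of this group, fell from 111.8, 126.7 and 96.9 to 49.9, 44.6 and 36.3 (-1.10, adjusted p = 0.000124), with 54.2 and 53.7 in the control. It was above all control arrays at 0 h, before induction, and below all of them at 96 h.

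RHBDF1, an iRhom that escorts ADAM17, fell from 56.9, 51.0 and 38.9 to 13.6, 3.3 and 14.1 (-1.32, adjusted p = 0.000286). FRMD8, which stabilises iRhoms, was called higher (0.57, adjusted p = 0.00103), but not with the mean of its probe sets (0.09, adjusted p = 0.673) or without course 2 (0.0587). SERPINE2, an inhibitor of plasminogen activators, fell from 585.9, 489.2 and 459.7 to 88.2, 89.2 and 98.9 (-2.28, adjusted p = 1.93e-09), against 332.3 and 234.5 in the control. For TSPAN14 and SERPINE2 1 of 2 probe sets each was called. TSPAN5 had 2 of 3 called, and FRMD8 1 of 4, the lowest giving -0.43.

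Of 21 tested substrates of ADAM10 and ADAM17, 6 had risen and 5 had fallen at 96 h, with a median of 0.16. The largest rises were those of DLL3, an inhibitory Notch ligand, from 44.8, 39.1 and 44.2 to 1625.3, 868.8 and 780.2 (4.16, adjusted p = 5.48e-09), L1CAM, an axonal adhesion molecule, from 2.4, 8.0 and 2.7 to 248.2, 241.0 and 159.9 (3.5, adjusted p = 3.19e-09), and PTPRK, a receptor phosphatase (1.09, adjusted p = 6.52e-06). In the control DLL3 read 86.2 and 134.6 and L1CAM 1.8 and 12. PTPRK rose in the control too, from 183.7 to 284.2, beside 294, 402.8 and 320.6 to 678.5, 794.2 and 736.4 in shOTX2. The largest falls were those of PRNP, the prion protein gene, from 2241.9, 2653.9 and 2438.7 to 452.3, 700.5 and 800.6 (-1.92, adjusted p = 4.39e-08), the receptor gene NOTCH2 (-1.13, adjusted p = 2.23e-07) and APLP2, a relative of the amyloid precursor (-1.11, adjusted p = 0.000788). PRNP and NOTCH2 read 2281.2 and 2019.4 in the control at 96 h. These genes were measured as RNA, and no cleavage was measured. The L1CAM change ran from 2.02 to 5.46 over the alternatives, all called. Outside the 48 h and 96 h shOTX2 arrays its signal never exceeded 14.4, which is under every array median. L1CAM therefore passed the filter through the groups in which it is high, and its call is no independent support.

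Of 30 tested matrix substrates, 9 had risen and 3 had fallen at 96 h, with a median of 0.04. SPARC, a collagen-binding matrix protein, went from 52.4 ± 11.8 (SD, n = 3) to 1673.8, 1241.2 and 1245.7 (4.36, adjusted p = 4.28e-11), with 144.0 and 198.2 in the control. The fibrillar collagens COL1A1 (3.29, adjusted p = 5.44e-08) and COL3A1 (2.04, adjusted p = 7.73e-05) rose as well. Their changes ran from 1.28 to 3.74 and from 0.98 to 3.86 over the alternatives, and 3 of 5 COL1A1 probe sets were called, the lowest giving -0.05. COL3A1 went from 9, 3.8 and 1 to 136.2, 65.6 and 31.2, with 7.3 and 5.2 in the control. Up to 24 h in shOTX2, and in the whole control course, it never exceeded 17.7. COL3A1 therefore passed the filter through the late arrays in which it is high, and its call is no independent support. The laminin chains LAMA1 (-3.04, adjusted p = 1.22e-10) and LAMC1 (-1.26, adjusted p = 1.44e-06) and RELN, the migration cue reelin (-1.98, adjusted p = 1.45e-08), fell. LAMA1 went from 451.8, 387.6 and 333.0 to 25.6, 26.6 and 51.0, with 330.6 and 443.5 in the control.

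The summed signal of 9 fibroblast markers, which include COL1A1, COL1A2 and COL3A1, was 93.7 to 153 in the early shOTX2 arrays and 636 to 1176 in the late ones, and 213 to 260 and 199 to 401 in the control. COL1A1 alone read 631.9, 986.9 and 933 at 48 h and 818.3, 404.7 and 404.2 at 96 h in shOTX2, and 295.4 in the control at 48 h. Of these markers 8 had medians under 50. From 0 to 96 h in shOTX2, PDGFRA went from a mean of 3.37 to 33.7, PDGFRB from 23 to 96.6 and COL1A2 from 3.4 to 18.7. DCN, LUM, THY1 and FAP never exceeded 30.5, 16.9, 27.7 and 19.3 on their brightest probe sets. The part of other cells in the matrix changes was not tested.

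The 35 family genes that were not tested have 56 probe sets, with signals from 0.1 to 32.1. They include MMP1, MMP3, MMP7, MMP10, MMP12 and MMP13, which lie in a run of MMP genes on chromosome 11 together with MMP8 and MMP27, and ADAMTS15 and ADAMTS5, the neighbours of ADAMTS8 and ADAMTS1. At the edge of the filter, 4 probe sets above the array median in 2 arrays had means of 6.31 to 11.5, and 6 in 3 arrays had means of 8.2 to 10.8.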

How the data were processed

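RNA of 24 samples was hybridised to Affymetrix U133 Plus 2.0 arrays, 1 per sample. The authors deposited a linear intensity for each probe set, computed with MAS5 and GCOS per the submitters' processing notes, with versions that the sources used here do not give. A mean trimmed by 2% at each end was 100.011 to 100.014 on every array, so the authors had scaled each one as a whole, and a change common to most genes cannot be seen. Groups, times and course numbers came from the labels.

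Probe sets took their names from the platform annotation, with symbols updated through RefSeq (GRCh38.p14) for 41043 of the 41097 that have 1 symbol. Of the rest, 1801 had several and 11777 were not listed. Those above the array median on at least 3 arrays were tested (33803), and each gene was read by the brightest of them. limma 3.58.1 in R 4.3.3 was fitted to log2(signal + 16) over the 12 group means with a trended eBayes, so folds understate the change of dim genes. The control groups, with 1 array each, borrow the spread of the shOTX2 groups. The fit was tested on simulated data. Array number limits the precision.

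The course number pairs arrays, since the labels describe independent courses, and deviations of same-numbered arrays correlated in 45 of 45 pairs (r from 0.154 to 0.553). The main fit leaves this pairing out, so differences of level between courses stay in its error. The family, partner lists and tests were chosen with earlier results of these data known. Named are genes called early, between the arms, or at 96 h by 1 log2 unit or more, the 6 family genes with the highest mean signal, the next in each group, genes whose probe sets disagree, and in partner lists the 3 largest changes each way. Alternatives were other pseudocounts, filters, scalings and probe set rules, the course block, no trend, only the groups compared, and each course left out. Those for partner genes were added after seeing the data.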

Additional observations from a re-analysis of the deposited data

Results flagged for a closer look

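For 8 genes the late against early change differed between the shOTX2 arm and the control course, by limma's test of the difference itself over all genes. The difference, shOTX2 minus control on the log2 scale, was -2.58 for ADAM28 (adjusted p = 9.62e-08), -2.41 for ADAMTS9 (adjusted p = 0.000141), -2.38 for ADAMTS1 (adjusted p = 0.000219), -2.03 for ADAMTS8 (adjusted p = 0.0178), -0.94 for ADAM9 (adjusted p = 0.00295) and -0.60 for ADAM17 (adjusted p = 0.0102). It was 1.23 for ADAM10 (adjusted p = 3.14e-06) and 2.71 for ADAM33 (adjusted p = 0.0181). All rest on 1 control array per time. ADAMTS9 changed by 0.35 in the control, ADAM17 by 0.21 and ADAM10 by 0.15, and the other 5 had negative control changes, from -1.85 (ADAM33) to -0.20 (ADAMTS1).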

How the results depend on the processing

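Of 68 single-gene results, 45 kept their sign and their side of the threshold under all alternatives run. At 16 h the count of family genes called was 1, and it was 0 with a pseudocount of 1, 0 with only the groups compared, 3 with the course as a replicate block and 0 to 1 with a course left out. At 24 h it was 4, and 1 to 3 with a course left out. The LGI list had 2 genes called at 96 h, and 1 to 2 with a course left out. Signs turned only for changes that were not called: MMP24OS (-0.0079) gave 0.10 with the mean of its probe sets and ranged from -0.025 to 0.0104 with a course left out, RECK (-0.11) gave 0.13 and ranged from -0.24 to 0.0092 in the same settings, and with a course left out ADAMTS3 ranged from -0.075 to 0.0090 and ADAMTS4 from -0.23 to 0.093. Beside those given with the results, the block changed no other call printed here, and it could not be fitted to the arms at 0 h. Fits without a course have 2 arrays per shOTX2 group. Limits are 1 cell line, 1 control array per time, MAS5 signals without detection calls, and dim late signals whose falls are understated.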
